A study of Mus musculus with 8 samples.

Results

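The 10 genes described here encode secreted BMP and activin ligands and the secreted proteins that bind and block them. They are the BMP genes Bmp2, Bmp4, Bmp6 and Bmp8a, the activin subunit genes Inhba and Inhbb, and the antagonist genes Fst, Fstl3, Grem1 and Nog. They were taken by gene symbol from a table of 55471 genes, in which each of these symbols occurred once, and were picked with earlier results of these data known. RNA was sequenced from SV-LECs, a mouse line labelled as lymphatic endothelial that was isolated from mesenteric adventitial tissue and immortalized with SV40. The untreated group and the group exposed to TGFβ1 at 10 ng/ml over 72 h had 4 libraries each, from the same line. The study's methods call them technical replicates, so the errors and p-values below cover technical variation within a single line. Total counts ranged from 18952504 to 26386941 per library.

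BMPs and activins belong to the TGFβ superfamily. Each is a dimer that brings type I and type II receptor kinases together, after which BMP receptors phosphorylate one class of SMAD proteins and activin receptors the class that TGFβ receptors also use. Follistatin, from Fst, and follistatin-like 3 bind activins with high affinity, whereas gremlin and noggin mainly bind BMPs, so the signal that a cell receives depends on ligand and antagonist together. In endothelium, BMP signals through ALK1 and endoglin are known for their part in the growth of blood and lymphatic vessels.

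The labelled cell type was checked against marker genes. Among 7 lymphatic markers, Pdpn (5707 to 9557 counts per library) and Flt4 (416 to 755 counts) were abundant enough to be tested. Prox1, Lyve1, Reln and Ccl21a had at most 3 counts in any library, and Mmrn1 at most 15. Of 8 general endothelial markers, Kdr (225 to 562 counts) and Tek (8 to 18 counts) were tested. Pecam1 had 1 to 5 counts and Cdh5 0 to 2, while Erg and Tie1 had no counts. Emcn had at most 1 count and Vwf at most 10. Several markers that define lymphatic and blood endothelium (Prox1, Lyve1, Pecam1, Cdh5, Erg and Tie1) were thus at or near 0, which goes against the label. Pdpn, Flt4 and Kdr were present all the same, with log2 fold changes of -0.13, 0.44 and 0.93. The cells are called SV-LECs below. The 4 mesothelial markers Msln, Upk3b, Wt1 and Lrrn4 were all present, with summed levels of 1253 to 1421 CPM (counts scaled to library size) in untreated and 434 to 532 CPM in TGFβ1 libraries. All 4 of these fell after TGFβ1. Of 10 fibroblast and mural markers, 7 were tested, and 5 rose and 2 fell (Dcn, from 312 to 83.0 CPM on average, and Pdgfra, from 160 to 57.8 CPM). By the same test, 37.6% of all tested genes rose and 38.0% fell. The sum of the 10 went from between 3464 and 4810 CPM to between 6578 and 7679 CPM. Most of it was Col1a1, at 3459 ± 611 CPM in untreated and 6057 ± 530 in TGFβ1 libraries (SD, n = 4). Myh11, among those that rose, had 2 to 23 counts per library and entered the test only through the TGFβ1 libraries. The leukocyte markers Ptprc, Cd3e, Cd79a and Adgre1 had at most 2 counts in any library, and Cd68, the other leukocyte marker, rose (log2 fold change 1.19). Of 4 epithelial markers, with a sum of at most 4.11 CPM in any library, Krt8 and Krt18 were tested. Both had very few reads in untreated libraries (means of 0.273 and 0.226 CPM). They entered the test through the TGFβ1 libraries (means of 1.11 and 1.24 CPM), so no weight is put on their rise. Whether the shift in mesothelial and mural markers has a part in the changes described next was not tested.

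Of the 10 genes, 9 passed the filter on low counts and all 9 differed between the groups at a false discovery rate (FDR) under 0.05. Bmp8a, Inhbb, Fst, Fstl3, Bmp6 and Inhba rose, and Grem1, Bmp4 and Nog fell. Log2 fold changes reached from -2.30 for Grem1 to 3.40 for Bmp8a, with a median of 0.97 against -0.01 over all genes tested. The response in this line was broad, and 75.6% of the 13818 genes tested had an FDR under 0.05. The proportion was 37.6% for higher and 38.0% for lower genes. Passing the test therefore sets these genes little apart, and the size of the change says more. Log2 fold changes above 1 were seen for 4 of the 9, against 10.9% of all tested genes, and below -1 for 3 of the 9, against 6.56%. Because the genes were picked with results in view, these shares are a description. Bmp8a, among the 4, passed the filter on low counts only through its TGFβ1 libraries. In each of the 9 the CPM ranges of the groups did not overlap, as in 69.8% of all tested genes. These are bulk libraries, in which a change in RNA per cell and a change in the share of cells that express a gene cannot be told apart.

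**Figure D1:**
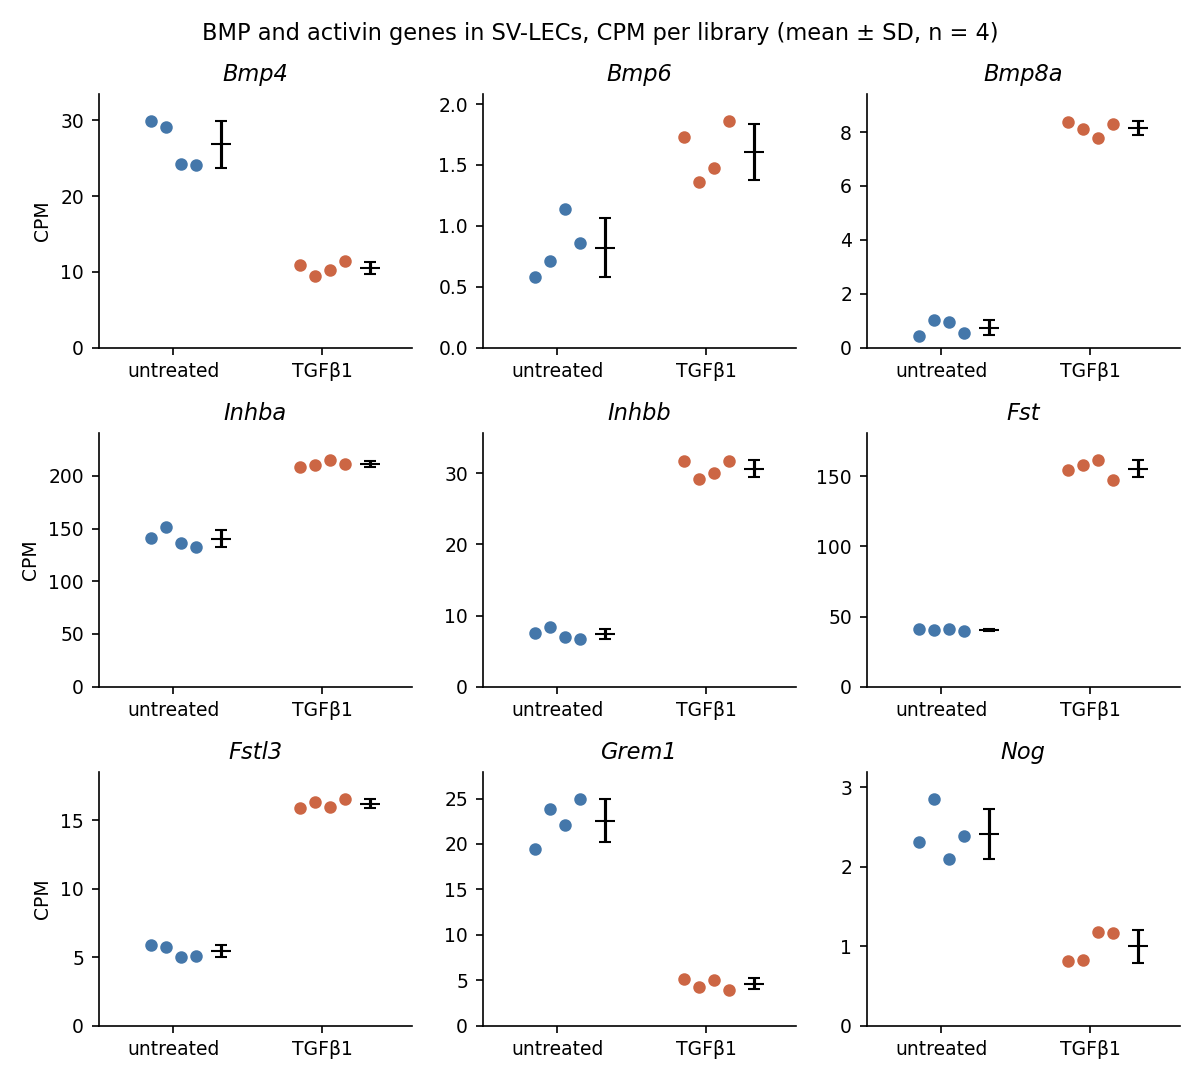
CPM of the 9 tested genes in every library (points, untreated in blue and TGFβ1 in orange, libraries 1 to 4 from left to right), with the mean and SD of each group beside them in black; each y axis starts at 0. The groups are apart in all 9 panels, and Bmp4, Grem1 and Nog are the panels in which the TGFβ1 libraries are the lower ones.

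Among Bmp2, Bmp4, Bmp6 and Bmp8a, the main changes were a fall of Bmp4 and a rise of Bmp8a. Bmp4 (ENSMUSG00000021835, GRCm38 chromosome 14, 46383520 to 46390669) encodes a BMP with broad roles in mesoderm and vessel development. Its level was 29.9, 29.1, 24.3 and 24.1 CPM in untreated libraries 1 to 4, and 10.9, 9.49, 10.3 and 11.4 CPM in TGFβ1 libraries 1 to 4. The lowest untreated library thus had more than the highest TGFβ1 library by a wide margin. Bmp4 fell by 1.35 on the log2 scale (SE 0.096, FDR = 2.04e-44 from edgeR's likelihood ratio test). Bmp8a (ENSMUSG00000032726, chromosome 4, 123312645 to 123343252), best known from germ cells and brown fat, was barely expressed without TGFβ1. The untreated libraries had 0.434, 1.01, 0.961 and 0.558 CPM, from 9 to 27 reads, and the TGFβ1 libraries 8.38, 8.13, 7.77 and 8.31 CPM. The log2 fold change of 3.40 (SE 0.156, FDR = 1.04e-103 from edgeR's likelihood ratio test) was the largest of the 9. Bmp8a passed the filter on low counts only through the TGFβ1 libraries, where it was high, so this rise is a description. Bmp8a has a close paralog, Bmp8b, and 6.62% of its stretches of 75 bases also occur in other genes. Bmp8b itself had at most 2 counts in any library.

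Bmp6 and Bmp2 contributed little RNA. Bmp6 (ENSMUSG00000039004, chromosome 13, 38345107 to 38500302), a BMP with a known role in iron balance, was at 0.578, 0.714, 1.14 and 0.862 CPM in the untreated and at 1.73, 1.36, 1.48 and 1.86 CPM in the TGFβ1 libraries. The gap between the groups was narrow, from 1.14 to 1.36 CPM. The log2 fold change was 0.97 (SE 0.220, FDR = 1.85e-05 from edgeR's likelihood ratio test). It rests on 12 to 48 reads per library, and 5.74% of its exon bases lie opposite Txndc5, a gene with 9029 to 13758 reads that rose by 0.22 on the log2 scale. How strand was handled in counting is not given in the sources used here. Bmp2 (ENSMUSG00000027358, chromosome 2, 133552159 to 133562885) had 0 reads in all 8 libraries. At these depths 0 reads allow up to 3, or 0.113 to 0.162 CPM depending on the library, and Bmp2 was not tested.

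Both activin subunit genes rose, Inhbb more than Inhba. Inhba (ENSMUSG00000041324, chromosome 13, 16011851 to 16031621) encodes the subunit of activin A. It was high already in untreated libraries, with 141, 152, 136 and 133 CPM, and reached 208, 211, 215 and 211 CPM with TGFβ1. This was the smallest fold change of the 9, at a log2 value of 0.59 (SE 0.047, FDR = 8.96e-36 from edgeR's likelihood ratio test). Inhbb (ENSMUSG00000037035, chromosome 1, 119415465 to 119422248), the activin B subunit gene, went from 7.61, 8.34, 7.03 and 6.74 CPM to 31.7, 29.3, 30.0 and 31.7 CPM. Its log2 fold change was 2.04 (SE 0.078, FDR = 8.92e-150 from edgeR's likelihood ratio test). The log2 ratio of Inhbb to Inhba counts within a library does not depend on library scaling, and it moved from -4.24 ± 0.053 to -2.79 ± 0.070 (SD, n = 4; exact two-sided permutation test, p = 0.0286). In per-length levels, Inhba made up 92.6% ± 0.253 of the 2 subunits in untreated and 82.1% ± 0.712 in TGFβ1 libraries (SD, n = 4). Inha, which encodes the inhibin α subunit and pairs with either β subunit, had 2.23 ± 0.274 CPM in untreated and 2.40 ± 0.201 in TGFβ1 libraries (SD, n = 4; FDR = 0.544 from edgeR's likelihood ratio test).

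The activin antagonist genes Fst and Fstl3 rose, and the BMP antagonist genes Grem1 and Nog fell. Fst (ENSMUSG00000021765, chromosome 13, 114452290 to 114458951) encodes follistatin, which wraps around activin and blocks both receptor sites. Its untreated libraries were tightly grouped at 41.3, 40.5, 40.9 and 39.4 CPM, and those with TGFβ1 had 154, 158, 162 and 147 CPM. The log2 fold change was 1.94 (SE 0.049), with the largest likelihood ratio statistic of the 9 (1562; the quasi-likelihood test in edgeR gave FDR = 5.13e-14). Fstl3 (ENSMUSG00000020325, chromosome 10, 79777272 to 79782630), a secreted relative of follistatin, rose from 5.88, 5.71, 5.02 and 5.12 CPM to 15.9, 16.4, 16.0 and 16.6 CPM, a log2 fold change of 1.57 (SE 0.088, FDR = 6.52e-70 from edgeR's likelihood ratio test). The Fstl3 to Fst log2 count ratio fell by 0.36 (exact two-sided permutation test, p = 0.0286, n = 4 per group), so the rise of Fst was the steeper one. The Fst to Inhba log2 count ratio went from -1.79 ± 0.080 to -0.44 ± 0.051 (SD, n = 4; exact two-sided permutation test, p = 0.0286). Prss57 lies opposite 47.3% of the exon bases of Fstl3, but had no more than 5 counts in a library.

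Grem1 (ENSMUSG00000074934, chromosome 2, 113746164 to 113758646), which encodes gremlin, had the steepest fall. Untreated libraries had 19.4, 23.8, 22.1 and 24.9 CPM, and TGFβ1 libraries 5.14, 4.24, 5.07 and 3.96 CPM. Grem1 fell by 2.30 on the log2 scale (SE 0.113, FDR = 1.65e-91 from edgeR's likelihood ratio test). Its fall exceeded that of Bmp4, since the Grem1 to Bmp4 log2 count ratio dropped by 0.95 (exact two-sided permutation test, p = 0.0286, n = 4 per group). Nog (ENSMUSG00000048616, chromosome 11, 89300638 to 89302332), a gene with a single exon that encodes noggin, was a minor antagonist here. It went from 2.31, 2.85, 2.10 and 2.38 CPM to 0.811, 0.828, 1.18 and 1.16 CPM, and fell by 1.26 on the log2 scale (SE 0.192, FDR = 1.20e-10 from edgeR's likelihood ratio test). Because Grem1 fell further than Nog, the Nog to Grem1 log2 count ratio rose by 1.02 (exact two-sided permutation test, p = 0.0286, n = 4 per group). In all, 5 such ratios were tested, and each gave an exact permutation p = 0.0286, the smallest value that 4 libraries against 4 allow, also after Benjamini-Hochberg adjustment over the 5. No ratio was formed for Bmp4 to Bmp2.

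Dividing CPM by the length of the annotated exons makes the genes comparable with each other. In untreated SV-LECs the order was Inhba (22.0 ± 1.30 CPM per kilobase; SD, n = 4), Bmp4 (11.9 ± 1.38), Fst (8.83 ± 0.180), Grem1 (5.44 ± 0.579), Fstl3 (2.22 ± 0.174), Inhbb (1.75 ± 0.165), Nog (1.42 ± 0.188), Bmp8a (0.308 ± 0.120) and Bmp6 (0.211 ± 0.061). The ranges of Inhbb and Nog overlapped, as did those of Bmp8a and Bmp6, and the other neighbours were apart. With the longest transcript as gene length, Fst (13.9) stood before Bmp4 (13.0) in untreated libraries and their ranges overlapped. After TGFβ1 the order was Fst (33.9 ± 1.34), Inhba (33.1 ± 0.460), Inhbb (7.21 ± 0.292), Fstl3 (6.63 ± 0.129), Bmp4 (4.68 ± 0.366), Bmp8a (3.39 ± 0.113), Grem1 (1.11 ± 0.143), Nog (0.588 ± 0.120) and Bmp6 (0.412 ± 0.059). Here Fst and Inhba overlapped. This too depends on the length used, since with longest transcripts Fst (53.2) was apart from Inhba (33.1), Fstl3 (8.29) stood before Inhbb (7.21), and Nog overlapped with Bmp6. Among all tested genes, Inhba stood at the 81.1 percentile in untreated and the 88.3 percentile in TGFβ1 libraries, while Bmp4 went from the 66.8 to the 42.8 percentile.

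**Figure D2:**
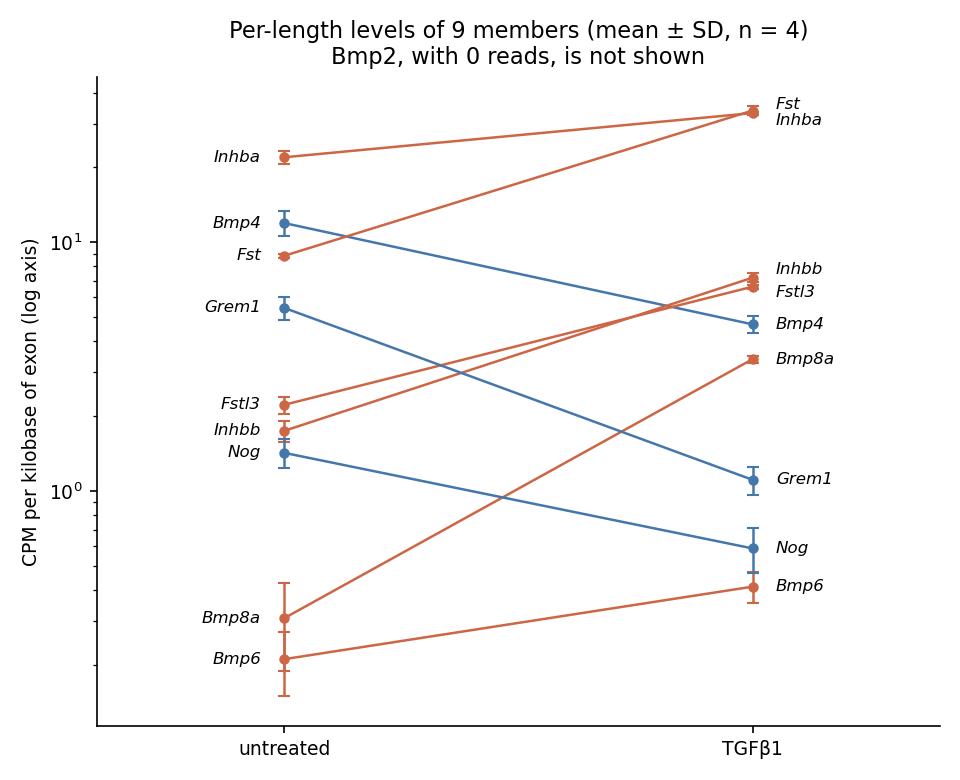
CPM per kilobase of pooled exons on a log axis for 9 genes in untreated and TGFβ1 libraries (mean and SD, n = 4 per group); orange lines join genes that rose and blue lines genes that fell. With this length Fst rises from 8.83 to 33.9, next to Inhba at 33.1, and Grem1 drops from 5.44 to 1.11.

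The summed per-length levels give the balance of antagonist to ligand RNA, as a description with no test. For activins, the sum of Fst and Fstl3 over that of Inhba and Inhbb was 0.479, 0.433, 0.478 and 0.477 in untreated libraries 1 to 4 and 1.00, 1.03, 1.03 and 0.960 in TGFβ1 libraries 1 to 4. The groups were far apart, and antagonist RNA went from below subunit RNA to about level with it. With the longest transcript as gene length the mean ratios were 0.703 and 1.53, since the pooled exons of Fst and of Fstl3 are longer than their longest transcripts. For BMPs, the sum of Grem1 and Nog over that of Bmp2, Bmp4, Bmp6 and Bmp8a was 0.443, 0.548, 0.572 and 0.664 in untreated and 0.196, 0.190, 0.234 and 0.182 in TGFβ1 libraries. This ratio moved the other way, and the groups again did not overlap. The summed RNA of these 4 ligand genes was lower as well, at 12.5 ± 1.32 CPM per kilobase in untreated and 8.48 ± 0.492 in TGFβ1 libraries (SD, n = 4). Both statements hold for these genes and depend on which genes are summed. With Gdf6, an abundant BMP-type ligand gene, the ligand sum was 47.5 ± 4.14 in untreated and 78.8 ± 7.01 CPM per kilobase in TGFβ1 libraries (SD, n = 4), so the direction turned. The ratio was then 0.145 ± 0.021 and 0.0216 ± 0.0016, and with the antagonist gene Nbl1 added too it was 0.310 ± 0.045 and 0.269 ± 0.025 (SD, n = 4), with groups that overlapped. More abundant modulator genes were in none of these sums. Among them were Fstl1 (474 and 592 CPM per kilobase in untreated and TGFβ1 libraries), Bmper (33.6 and 61.6) and Crim1 (55.0 and 45.7). Twsg1 (43.2 and 46.8) and Tgfbr3 (44.6 and 38.2) were others. The makeup of the summed RNA of the 4 genes changed at the same time, since Bmp4 was 95.8% ± 1.48 of it in untreated and 55.1% ± 1.44 in TGFβ1 libraries, and Bmp8a 2.50% ± 0.982 and 40.0% ± 1.76. Transcript levels say nothing on how much of each protein was secreted.

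**Figure D3:**
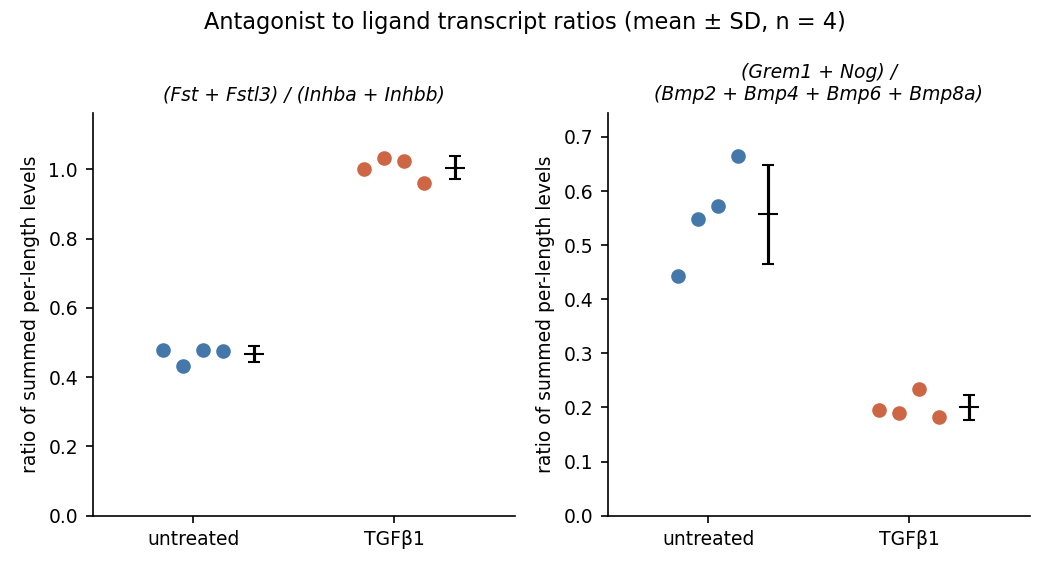
Ratio of summed per-length levels in each library (points, untreated in blue and TGFβ1 in orange, libraries 1 to 4 from left to right), with mean and SD in black and axes from 0. On the left, activin antagonists over activin subunits move from 0.467 to 1.01 on average, and on the right Grem1 and Nog over the 4 BMP genes from 0.557 to 0.201.

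Stretches of 250 bases before the RefSeq transcription start (GRCm38.p6) were found for 7 of the genes, and not for Bmp2, Fst and Nog. They were searched on both strands for CAGAC, a core that SMAD proteins can bind, for the palindrome GTCTAGAC and for GGCGCC, a GC-rich element linked to BMP-class SMADs. None of these letter strings contains another. CAGAC or its complement occurred in 4 of the 7 (Bmp6, Bmp8a, Fstl3 and Grem1), against 42.2% of all 32851 promoters in the table. GGCGCC occurred in Grem1 alone among the 7, against 9.59% of all promoters, and GTCTAGAC in none of the 7, against 0.167%. CAGAC or its complement is in capitals below. Among these 7 genes, stretches are shown for the gene with the largest rise, the gene with the largest fall and the most abundant ligand gene. They lie outside the annotated RefSeq transcript and end at the base before its start.
Bmp8a, GRCm38 chr4:123343253-123343502, minus strand: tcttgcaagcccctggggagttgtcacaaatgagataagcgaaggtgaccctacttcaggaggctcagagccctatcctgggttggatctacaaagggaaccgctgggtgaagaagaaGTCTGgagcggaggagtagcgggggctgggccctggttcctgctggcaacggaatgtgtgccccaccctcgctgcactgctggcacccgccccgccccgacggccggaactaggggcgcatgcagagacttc
Grem1, GRCm38 chr2:113758649-113758898, minus strand: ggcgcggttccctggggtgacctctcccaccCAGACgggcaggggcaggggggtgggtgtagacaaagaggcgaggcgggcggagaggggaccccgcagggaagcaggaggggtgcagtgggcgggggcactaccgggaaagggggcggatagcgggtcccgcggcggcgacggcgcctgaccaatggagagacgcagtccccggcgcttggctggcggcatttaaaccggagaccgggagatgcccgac
Inhba, GRCm38 chr13:16011601-16011850, plus strand: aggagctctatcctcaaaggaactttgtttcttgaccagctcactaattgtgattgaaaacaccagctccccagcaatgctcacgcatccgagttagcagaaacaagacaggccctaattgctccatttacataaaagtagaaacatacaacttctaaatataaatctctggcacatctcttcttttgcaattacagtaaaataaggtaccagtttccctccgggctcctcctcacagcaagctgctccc
The rising Bmp8a and the falling Grem1 each held a single match and Inhba none. A match of so short a string is a description of the sequence and no sign of binding.

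Other genes of the pathway were examined as fixed lists, by counts and medians. Their counts are to be read against the 37.6% of all tested genes that were higher and the 38.0% that were lower. Of 22 other BMP, GDF and activin ligands, 8 were tested, and 5 rose and 1 fell, with a median log2 fold change of 0.82. Gdf6, which encodes a BMP-type growth factor of skeleton and eye, was the most abundant of the 8 per length at 35.1 ± 2.93 CPM per kilobase in untreated and 70.4 ± 6.66 in TGFβ1 libraries (SD, n = 4). It was thus above Inhba in both groups, with a log2 fold change of 1.00. Gdf11, a close relative of myostatin, rose by 1.04 and Gdf10 by 1.77 on the log2 scale. Gdf2, the gene of the ALK1 ligand BMP9, rose by 1.53 on the log2 scale, from 0.442 ± 0.076 to 1.30 ± 0.179 CPM (SD, n = 4). Bmp3, whose product opposes other BMPs, had the only fall at a log2 value of -3.31, from 4.10 ± 0.826 to 0.383 ± 0.392 CPM (SD, n = 4). Gdf9 passed narrowly (FDR = 0.0422 in edgeR) by the likelihood ratio test but not by the quasi-likelihood test (FDR = 0.0640 in edgeR). Gdf2, with 7 to 32 counts per library, and Gdf9 entered the test only through the TGFβ1 libraries. Bmp3, with 1 to 104 counts, entered it only through the untreated libraries, so the changes of all of these are a description.

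Of 20 other antagonists and modulators, 15 were tested, and 7 rose and 5 fell, with a median log2 fold change of 0.25. Bmper, which encodes an extracellular BMP modulator of endothelium, rose by 0.87 on the log2 scale and Nbl1, a gene of the same family as Grem1, by 1.33. Smoc1, whose product is a matricellular BMP antagonist, rose by 2.26. Sostdc1 and Chrdl1, both genes of secreted BMP antagonists, had log2 fold changes of -2.97 and -2.43, and Crim1 one of -0.27. Sostdc1 and Chrdl1 entered the test only through the untreated libraries (means of 2.99 and 3.32 CPM), so their falls are a description. With TGFβ1 their means were 0.378 and 0.615 CPM. The fall of Grem1 and Nog was thus shared by some other BMP antagonists and not by all.

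Of 13 receptors and co-receptors, 11 were tested, and 6 rose and 5 fell, where 75.6% of all tested genes were called in either direction. Eng, the gene of endoglin, rose by 1.21 on the log2 scale (62.0 ± 3.69 to 143 ± 3.81 CPM; SD, n = 4). Acvrl1, which encodes ALK1, rose by 1.61 and Bmpr2, the BMP type II receptor gene, by 0.88. The activin type I receptor gene Acvr1b had a log2 fold change of -0.67 and the activin type II receptor gene Acvr2a one of -0.42. The BMP co-receptor gene Rgma had a log2 fold change of -0.94. Acvr2b, the other activin type II receptor gene, had one of -0.99 and Acvr1, a type I receptor gene, one of 0.62; both were named after their values were seen.

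Of 8 SMAD genes, 3 rose and 3 fell. Smad7, an inhibitor of both arms, rose by 0.89, Smad3 of the activin class by 0.71 and Smad5 of the BMP class by 0.16 on the log2 scale. Smad9, also of the BMP class, had a log2 fold change of -1.73, Smad6, which inhibits BMP signals, one of -1.04, and the common partner Smad4 one of -0.43. Of 11 BMP response genes, which include Smad6 and Smad7, 8 were tested, and 1 rose and 5 fell, with a median log2 fold change of -0.65. Apart from Smad6 the falls were those of Msx1 (log2 fold change -1.29), Atoh8 (-0.99), Id3 (-0.94) and Id1 (-0.37), all genes of transcription regulators. Id1, named because the count is 5, did not pass the quasi-likelihood test (FDR = 0.0654 from edgeR), and its groups overlapped in CPM. Id2 and Id4 were not called, with log2 fold changes of -0.15 and 0.05 (FDR = 0.279 and 0.812 from edgeR's likelihood ratio test). The gene that rose was Smad7. Whether the changes on this list came from BMP signals or from TGFβ1 acting on the genes directly was not tested.

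**Figure D4:**
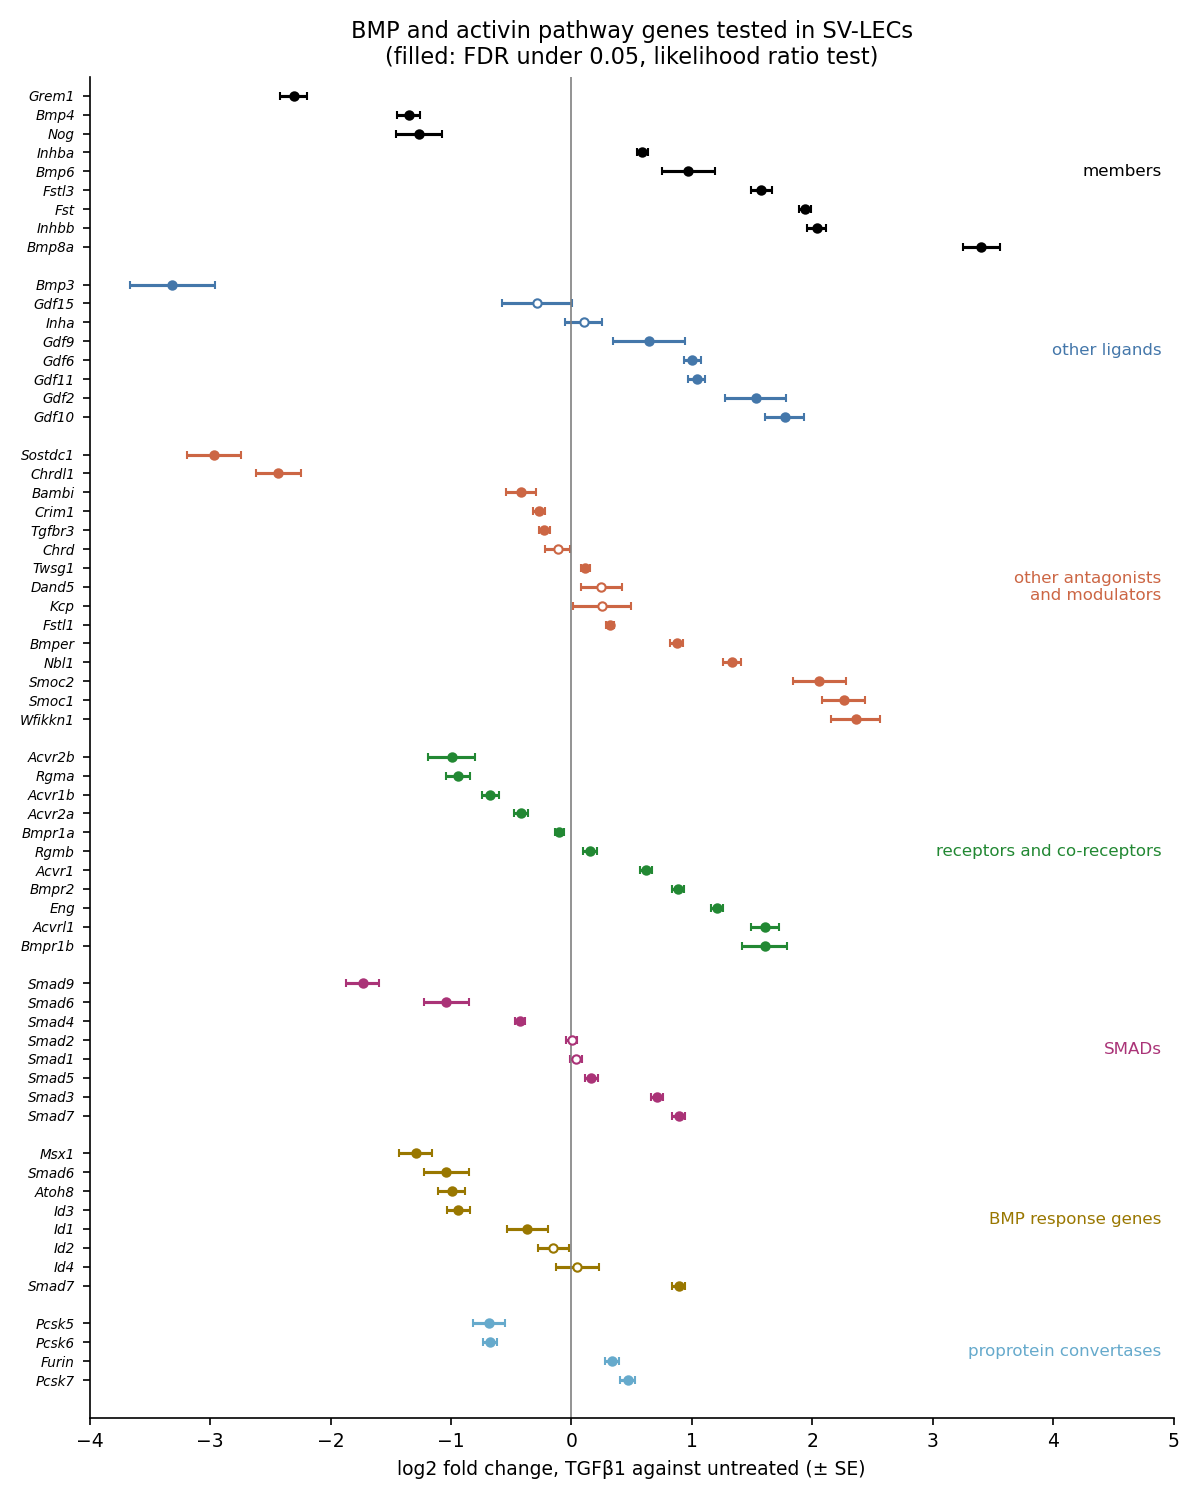
Log2 fold change of TGFβ1 against untreated libraries, with SE, for every tested gene of the 7 lists, grouped by list; filled points had an FDR under 0.05 in edgeR's likelihood ratio test. Among the 9 genes in black at the top, Bmp8a lies farthest to the right at 3.40 and Grem1 farthest to the left at -2.30.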

How the data were processed

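RNA of 8 SV-LEC samples was sequenced by the study with stranded poly(A) libraries and single-end reads of 75 bases. The deposited values are raw counts of reads per gene; the submitters' processing notes name bcl2fastq 2.20.0.422, STAR 2.7.3a, featureCounts 1.5.1 and GRCm38. The annotation release and the strand setting are not given in the sources used here. Groups followed the sample titles. Low-count genes were removed by filterByExpr of edgeR 4.0.16 (R 4.3.3), libraries were scaled by TMM, and groups were compared with glmFit and glmLRT, the test named in the study's methods. The FDR is the Benjamini-Hochberg value across the 13818 genes kept. SEs are the log2 fold change over the square root of the likelihood ratio statistic. Ratios of counts had 0.5 added to each count. Lengths, positions and overlaps came from GENCODE M21, which matched 55144 of 55471 genes. The pipeline was tested on simulated data. The genes, lists and tests were chosen with earlier results of these data known. Genes of the other lists were named by rule: up to 3 per direction with the largest statistic among called genes whose groups did not overlap, and called ligand genes beyond 1 in log2 fold change either way. Others, among them Acvr2b, Acvr1, Chrd, Fstl1, Twsg1, Tgfbr3, Id2 and Id4, were named after their values were seen. Alternatives were the quasi-likelihood test, DESeq2 1.42.0, other scalings, filters and thresholds, a replicate block, a prior count of 2 and each library left out. Floors of 3 counts cover counting error only.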

Additional observations from a re-analysis of the deposited data

How the results depend on the processing

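All 9 tested genes kept their direction and an FDR under 0.05 in the 16 alternative fits computed for each, with log2 fold changes of 3.22 to 3.61 for Bmp8a, 0.84 to 1.17 for Bmp6 and -2.38 to -2.23 for Grem1. The largest FDR was 0.00130, for Bmp6. Counts of pathway genes stayed within 1.5 times, except that 2 BMP response genes in place of 1 were higher without a filter on low counts. The count of lower BMP response genes, 5 as reported, was between 4 and 6 over all alternatives, and 4 with the replicate block. The balance ratios depend on gene length and on the genes summed. Longest transcripts gave 0.703 and 1.53 for activins in untreated and TGFβ1 libraries, and no division by length gave 0.311 and 0.709 for activins and 0.889 and 0.277 for BMPs. In alternatives chosen after seeing the data, the BMP ratio was 0.145 and 0.0216 with Gdf6 among the ligands, and 0.310 and 0.269 with Nbl1 among the antagonists as well. Leaving out single libraries moved these ratios by less than 1 SD. With the replicate number as a block, 6 of the 9 genes were higher and 3 lower, as without it, and 5075 and 5077 of all genes. Deviations of same-numbered libraries correlated at -0.193 to -0.034, which cannot show whether these libraries were handled as pairs. Exact tests of the count ratios cannot go below p = 0.125 within 4 pairs or 0.0571 with 1 library left out, so only their values were compared. Genes with few reads, such as Bmp6 and Nog, carry the largest SEs.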

Other observations

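BMP and activin precursors are cut by proprotein convertases before they can signal. All 4 convertase genes on the list changed, as did 75.6% of all genes tested. Furin and Pcsk7 rose, with log2 fold changes of 0.34 (SE 0.058) and 0.47 (SE 0.064), and Pcsk6 and Pcsk5 fell, with log2 fold changes of -0.67 (SE 0.059) and -0.68 (SE 0.132). In untreated libraries Pcsk6 was the most abundant of them per length, at 30.3 ± 1.94 CPM per kilobase against 9.08 ± 0.533 for Furin (SD, n = 4).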
